A study of Mus musculus with 10 samples.

Results

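The insulin-like growth factor (IGF) family was described here by 9 genes: the ligands Igf1 and Igf2, the receptor Igf1r, and the binding proteins Igfbp2 to Igfbp7. They were selected on values of these same libraries, by symbol, and all 9 were found among the 48897 rows of each of 2 expression tables. One table covered sorted prostate epithelium and the other Myc-CaP, a line of mouse prostate cancer cells, and libraries labelled Arid1a KO were compared with control libraries within each table. Arid1a encodes a subunit of the SWI/SNF chromatin remodelling complex.

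The epithelium came from 3-month-old C57BL/6 males and was sorted as EpCAM+ CD45- cells, with 3 libraries (A, B and C) called control and 3 that carry Arid1aPC-/- in addition. PC stands for deletion by a Cre driven by the Probasin promoter, which is active in prostate epithelial cells. Both epithelial groups carry another deletion made with the same Cre, and neither is wild type. Myc-CaP, of FVB background, gave 2 libraries with an empty vector (Myc-CaP EV) and 2 labelled Myc-CaP Arid1a KO, made with lentiviral CRISPR guides. The labels name no clone, litter or batch. Nothing in them says that libraries of a group came from separate cultures, and whether the Myc-CaP cells were taken from culture or sorted from grafted tumours is not settled by the sources used here. P-values then measure only the spread between these libraries.

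IGF1 and IGF2 are secreted peptides that bind the receptor tyrosine kinase IGF1R, which signals through insulin receptor substrates to PI3K and AKT. The binding proteins hold most IGF outside cells, lengthen its life and keep it from the receptor, until proteases cut them and free it. IGFBP6 prefers IGF2, IGFBP7 binds IGFs only weakly, and IGFBP2, IGFBP3 and IGFBP5 also act without IGF. In the prostate, stromal cells are a known source of IGF1, and IGFBP3 and IGFBP5 are known to respond to androgen and to castration.

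The members lie at separate places in the genome, apart from a pair of neighbours on chromosome 1. On GRCm38.p6 (RefSeq), Igfbp2 spans chromosome 1 from 72824480 to 72852474 on the plus strand, and Igfbp5 starts 5590 bases further on, from 72858065 to 72874865 on the minus strand. Igf1r (chromosome 7, 67952257 to 68233668) and Igf2 (chromosome 7, 142650768 to 142666816) share a chromosome but are far apart. Igf2 lies 72621 bases from H19, the imprinted noncoding gene of the same cluster. Igf1 lies on chromosome 10 (87858265 to 87937047), Igfbp3 on chromosome 11 (7206086 to 7215498), Igfbp4 on chromosome 11 (99040005 to 99052655), Igfbp6 on chromosome 15 (102144186 to 102149512) and Igfbp7 on chromosome 5 (77349240 to 77408045). Igfbp3 is separated by 3539 bases from Igfbp1. All 9 are protein-coding genes.

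Promoter sequences are shown for 4 binding proteins on which the values below turn: Igfbp2 and Igfbp6, with the largest differences in the epithelium, Igfbp3, which differed the other way, and Igfbp5, which differed in Myc-CaP. Each is 300 bases of GRCm38.p6 from RefSeq, from 250 bases before to 50 bases after a listed transcription start, read 5′ to 3′ on the gene's strand. Capitals mark letters that match any motif searched on both strands. These were the Sp1 motif GGGCGG, the core promoter motif TATAAA, the AP-1 motif TGANTCA, the FOXO motif TGTTTAC, the E-box motif CACGTG, the half-site TGACGT of the cyclic AMP response element (CRE), the half-site AGAACA of the androgen receptor, and the NF-kB motif. The positions are chr1:72824230-72824529 for Igfbp2 (plus strand, the first of its 2 listed starts), chr15:102143936-102144235 for Igfbp6 (plus), chr11:7213874-7214173 for Igfbp3 (minus) and chr1:72874816-72875115 for Igfbp5 (minus).
Igfbp2: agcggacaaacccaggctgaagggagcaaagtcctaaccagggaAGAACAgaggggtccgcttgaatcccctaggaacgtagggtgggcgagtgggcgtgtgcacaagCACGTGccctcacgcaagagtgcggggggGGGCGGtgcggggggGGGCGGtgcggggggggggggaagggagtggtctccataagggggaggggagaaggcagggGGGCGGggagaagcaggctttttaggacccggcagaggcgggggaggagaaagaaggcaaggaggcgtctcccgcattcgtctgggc
Igfbp6: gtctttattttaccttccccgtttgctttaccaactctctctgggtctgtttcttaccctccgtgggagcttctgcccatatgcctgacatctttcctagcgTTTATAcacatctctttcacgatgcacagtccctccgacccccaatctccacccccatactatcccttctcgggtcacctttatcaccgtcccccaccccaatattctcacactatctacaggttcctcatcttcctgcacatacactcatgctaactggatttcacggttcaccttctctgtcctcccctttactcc
Igfbp3: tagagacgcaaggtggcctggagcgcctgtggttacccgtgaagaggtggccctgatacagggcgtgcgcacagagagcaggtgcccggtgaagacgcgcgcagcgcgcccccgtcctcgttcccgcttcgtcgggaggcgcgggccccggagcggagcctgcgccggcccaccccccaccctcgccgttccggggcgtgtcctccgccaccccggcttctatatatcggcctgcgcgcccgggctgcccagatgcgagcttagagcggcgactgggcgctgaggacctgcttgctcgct
Igfbp5: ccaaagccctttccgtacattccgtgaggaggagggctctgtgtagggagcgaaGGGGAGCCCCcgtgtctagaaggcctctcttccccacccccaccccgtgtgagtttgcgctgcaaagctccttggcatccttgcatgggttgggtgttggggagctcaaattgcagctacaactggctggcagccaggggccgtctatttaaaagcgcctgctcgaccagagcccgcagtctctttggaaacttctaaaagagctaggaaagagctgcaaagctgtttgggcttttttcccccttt

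The 2 genes with the largest differences did not share a motif in these windows. Igfbp2 held GGGCGG 3 times, CACGTG 1 time and AGAACA 1 time, while Igfbp6 held only TATAAA, read on the other strand. Of 32851 promoters of the same length, 35.7% held GGGCGG, 7.15% CACGTG, 18.97% AGAACA and 13.6% TATAAA. Igfbp3 held 37 CG pairs and no motif searched, and 94.4% of promoters had fewer CG pairs. Igfbp5 held 1 match to the NF-kB motif, as did 4.51% of promoters. The AP-1, FOXO and CRE motifs were found in 7.81%, 3.65% and 7.51% of promoters and in none of these 4 windows. The window at the second listed start of Igfbp2, not shown, held 1 AP-1 match and no other motif searched. A match describes the letters and is not a binding site.

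Depth was high enough in the epithelium for every member to be measured. The deposited values (RPKM, which divides reads by gene length and library size, and TPM, which also fixes the sum) proved to be whole multiples of what 1 read is worth, so reads were recovered. The epithelium libraries held 28580018 to 36068017 reads in genes and the Myc-CaP libraries 18197036 to 20433147. Arid1a, read first as a check of the labels, was 27.8, 21.9 and 26.5 RPKM in controls A, B and C. In the libraries labelled Arid1a KO it was 31.1, 28.8 and 30.8 RPKM, so it was not lower in them. A value summed over a whole gene cannot show whether part of it was deleted, so this reading does not settle the labels. Directions below are those of the libraries as labelled. In Myc-CaP, Arid1a was 60.5 and 61.0 TPM with the empty vector and 39.5 and 40.3 TPM in the libraries labelled Arid1a KO.

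Epithelial markers were present in the sorted cells, but markers of other cells were too, and several differed between the groups. Epcam, whose protein was used for the sort, was 279.3, 351.2 and 281.3 RPKM in controls A, B and C and 183.0, 194.2 and 224.7 RPKM in those labelled Arid1a KO. The summed RPKM of 8 fibroblast markers ranged from 1737 to 2525 in controls and from 1444 to 2026 in the libraries labelled Arid1a KO, and that of 6 macrophage markers from 1222 to 1464 and from 1815 to 2146. The 6 secretory genes of the seminal vesicle summed to 18310 to 20710 RPKM in controls and 622.6 to 1573 RPKM in the libraries labelled Arid1a KO. In Myc-CaP the epithelial markers Epcam and Krt18 were listed at 0 in both empty vector libraries. The other luminal markers in empty vector libraries 1 and 2 were Krt8, at 1.07 and 0.79 TPM, and Cdh1, at 0.0257 and 0.0585 TPM.

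In the epithelium, the binding proteins were the abundant part of the family and the ligands and the receptor the scarce part. In controls the order by mean RPKM was Igfbp7, Igfbp4, Igfbp5, Igfbp6, Igfbp3, Igfbp2, Igf1, Igf1r and Igf2. The library ranges of Igfbp4 and Igfbp5 overlapped, and every other neighbour in that order stood apart. Igfbp7 ranked 114 and Igfbp4 ranked 185 among 16275 genes by control mean, whereas Igf1 ranked 5650, Igf1r 8596 and Igf2 12280. In the libraries labelled Arid1a KO, Igfbp3 had moved above Igfbp6, and the ranges of Igfbp5 and Igfbp4, and of Igfbp4 and Igfbp3, overlapped.

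**Figure D1:**
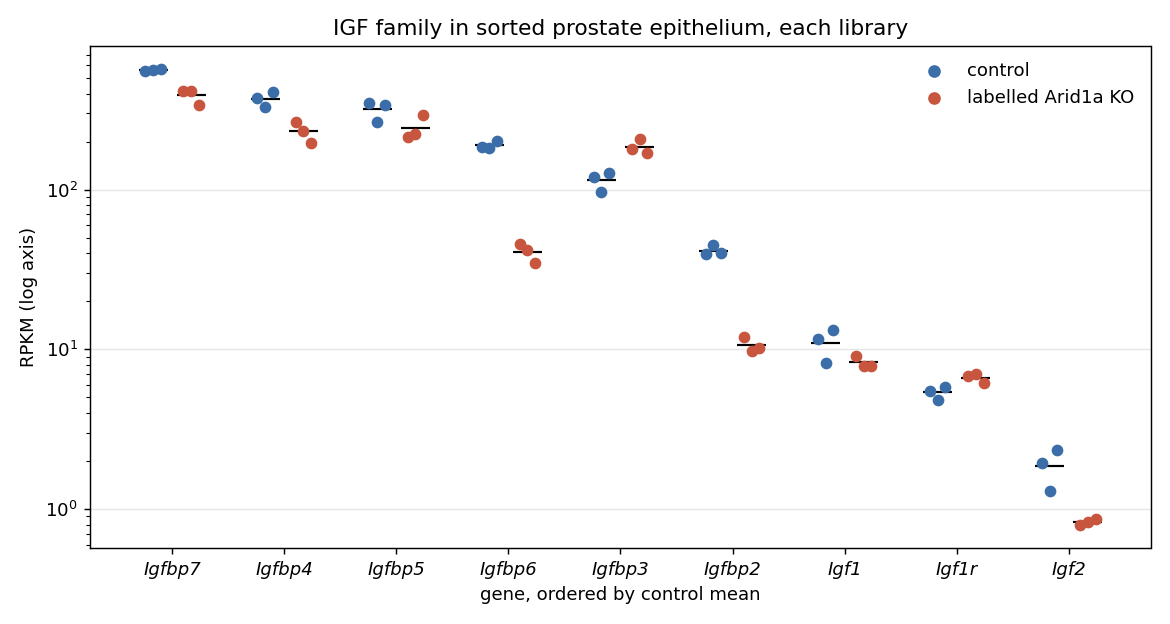
RPKM (log axis) of the 9 IGF family genes in each epithelium library, with a black line at the group mean. Igfbp6, at 181.4 to 202.4 RPKM in 3 control libraries and 34.99 to 45.87 RPKM in 3 libraries labelled Arid1a KO, and Igfbp2 show the widest gaps, while the groups overlap for Igf1 and Igfbp5.

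Of the 9 members, 5 were lower and 2 higher in the libraries labelled Arid1a KO at an adjusted p-value under 0.05 (limma, Benjamini-Hochberg over 16275 genes), and 2 were not called. Because the members were selected with this contrast known, that count is a description and no p-value is given for a member. Among all 16275 genes tested, 57.1% were called, 29.6% lower and 27.5% higher, so a call was common in this table. The 3 libraries of each group did not overlap in 5 members that were lower and 2 that were higher, against 34.4% and 32.4% of all genes. The members' log2 fold changes had a median of -0.53, beside -0.03 for all genes tested. Fold changes are on the log2(RPKM + 1) scale, as the libraries labelled Arid1a KO minus control, and this scale understates the change of low genes. In bulk samples, fewer cells of a type and less RNA per cell cannot be told apart.

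Igf1, the main growth-promoting ligand, was 11.7, 8.21 and 13.2 RPKM in controls A, B and C and 9.11, 7.85 and 7.89 RPKM in libraries A, B and C labelled Arid1a KO. The groups overlapped, because control library B lay between the knockout-labelled libraries, and Igf1 was not called. Its log2 fold change was -0.35 ± 0.16 (SE, n = 3 per group). These values rested on 1943 to 3521 reads per library, a counting error of at most 2.27%, whereas the controls varied by 23.2% (coefficient of variation). The antisense gene Igf1os held only 3 to 11 reads in a library.

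Igf2, the fetal ligand, was the least abundant member, at 1.94, 1.29 and 2.35 RPKM in controls A, B and C and 0.790, 0.828 and 0.863 RPKM in those labelled Arid1a KO. Every knockout-labelled library was below every control. The ratio of means was 0.444, and the log2 fold change -0.63 ± 0.14 (SE, n = 3 per group), with 234 to 365 reads in controls and 120 to 124 reads in the other group. With a pseudocount of 0.1 in place of 1 the log2 fold change was -1.04.

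Igf1r, the receptor of both ligands, was 5.49, 4.85 and 5.82 RPKM in controls A, B and C and 6.80, 7.01 and 6.12 RPKM in those labelled Arid1a KO. The groups did not overlap, but the gap between the highest control and the lowest knockout-labelled library was small, a ratio of 1.05. The ratio of means was 1.23 and the log2 fold change 0.26 ± 0.09 (SE, n = 3 per group). Its call was lost without control library A or B, without library A or B of the other group, without a filter on low values and with a replicate block.

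Igfbp6, the binding protein that prefers IGF2, showed the largest difference of the family. It was 184.2, 181.4 and 202.4 RPKM in controls A, B and C and 45.9, 41.9 and 35.0 RPKM in those labelled Arid1a KO. The control mean was 4.63 times the other, with a log2 fold change of -2.19 ± 0.10 (SE, n = 3 per group). Each library held between 1299 and 8492 reads of it.

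Igfbp2, a binding protein that is often raised in prostate cancer, was 39.6, 44.9 and 40.1 RPKM in controls A, B and C and 11.9, 9.80 and 10.2 RPKM in those labelled Arid1a KO. All knockout-labelled libraries lay far below the controls, and the control mean was 3.91 times theirs. The log2 fold change was -1.87 ± 0.09 (SE, n = 3 per group). Its neighbour Igfbp5 differed far less.

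Igfbp3, the main carrier of IGF in blood, was the only binding protein with higher values in the libraries labelled Arid1a KO. It was 119.5, 96.3 and 127.4 RPKM in controls A, B and C and 180.9, 206.9 and 170.2 RPKM in the others, without overlap. The ratio of means was 1.63 and the log2 fold change 0.70 ± 0.12 (SE, n = 3 per group). Igfbp1, which lies beside it in the genome, held 3 reads in control library A, 1 in library C labelled Arid1a KO and 0 in the other 4, a level too low to compare.

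Igfbp4, which restrains IGF action until the protease PAPP-A cuts it, was 376.8, 330.3 and 409.1 RPKM in controls A, B and C and 265.0, 234.5 and 196.8 RPKM in those labelled Arid1a KO. The groups did not overlap, with a log2 fold change of -0.68 ± 0.13 (SE, n = 3 per group). Pappa itself averaged 0.140 RPKM in controls and 0.190 RPKM in the other group, below the level for testing.

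Igfbp7, the low-affinity member and the most abundant in every epithelium library, was 550.0, 559.9 and 571.7 RPKM in controls A, B and C and 416.1, 413.5 and 337.2 RPKM in those labelled Arid1a KO. The controls varied by 1.93%, the tightest of the family, and the other group by 11.5%. The log2 fold change was -0.53 ± 0.10 (SE, n = 3 per group), and -0.33 after quantile normalization.

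Igfbp5, the binding protein best known for sticking to matrix, was 351.0, 266.9 and 341.1 RPKM in controls A, B and C and 213.7, 223.5 and 292.8 RPKM in those labelled Arid1a KO. Library C labelled Arid1a KO lay above control library B, so the groups overlapped, and Igfbp5 was not called. The log2 fold change was -0.40 ± 0.15 (SE, n = 3 per group). Without that library C, or without control library B, Igfbp5 was called, and without control library B Igf1 was too, with log2 fold changes whose range over all settings is given in the closing section. Counting error was at most 0.512% for Igfbp5, far under the spread between libraries of 14.4% and 17.7%.

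**Figure D2:**
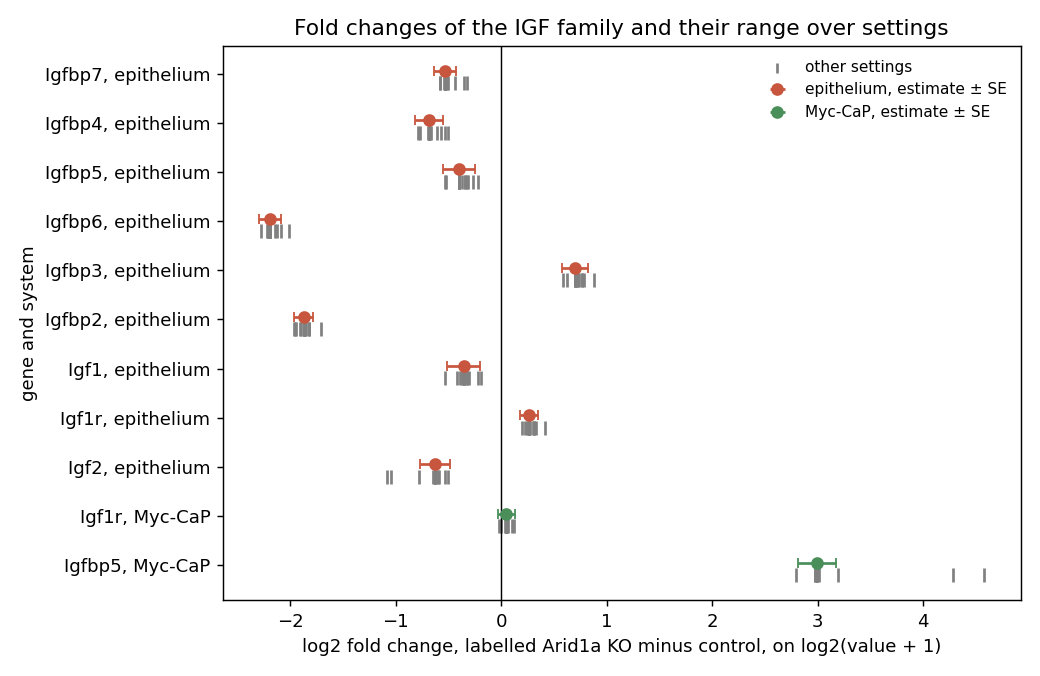
Log2 fold change on log2(value + 1), libraries labelled Arid1a KO minus control, with SE, for 9 members in the epithelium and 2 in Myc-CaP; grey ticks give the same value under the other settings, including those that leave out a library and 2 on another log scale (a pseudocount of 0.1, and voom on recovered reads). Every tick keeps the sign of its estimate except for Igf1r in Myc-CaP, which lies at 0.05, and Igfbp5 in Myc-CaP spreads from 2.80 to 4.58.

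One control library was the lowest for most members. Control library B had the lowest value of the 3 controls for 7 of 9 members, all but Igfbp2 and Igfbp7, and for 44.4% of all genes tested. Library C had the lowest value of the 3 libraries labelled Arid1a KO for 5 of 9 members, and for 27.7% of all genes. The part of library composition in the members' values was not tested.

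The make-up of the binding protein transcripts differed between the groups along with their sum. The 6 genes together gave 1598 ± 108 RPKM in controls and 1102 ± 51.7 RPKM in the libraries labelled Arid1a KO (SD, n = 3 each). Igfbp3 was 7.14% ± 0.55 of that sum in controls and 16.9% ± 1.25 in the other group, while Igfbp6 was 11.9% ± 0.46 and 3.71% ± 0.35 (SD, n = 3 each). Igfbp2 was 2.61% ± 0.36 and 0.96% ± 0.09. Igfbp7 held 35.2% in both groups, and Igfbp4, at 23.2% ± 0.95 and 21.0% ± 2.26, and Igfbp5, at 19.97% ± 1.86 and 22.3% ± 5.07, overlapped between them.

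**Figure D3:**
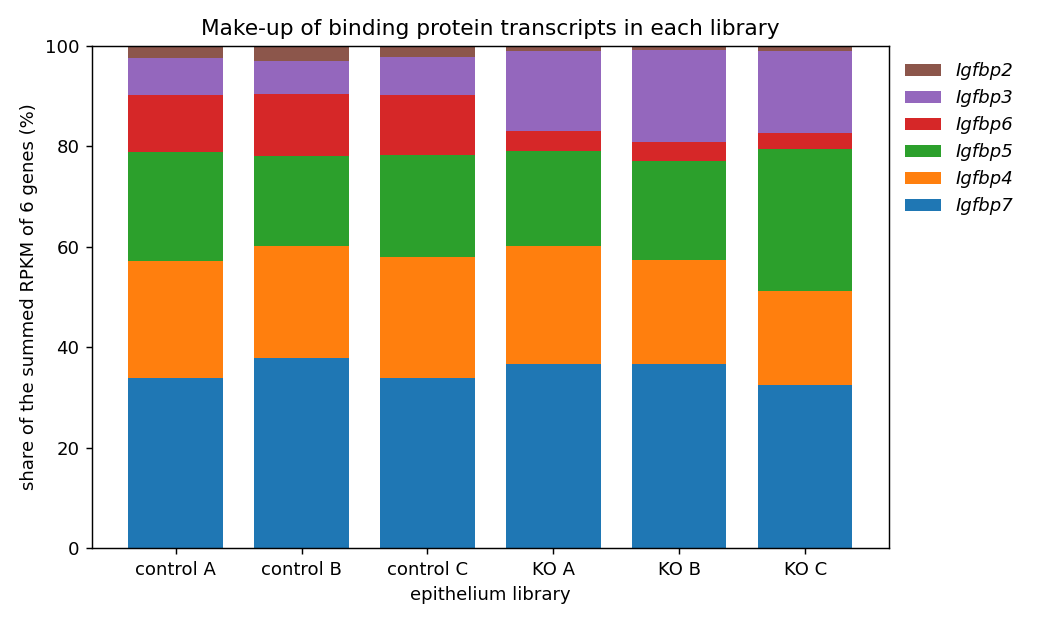
Share of each of 6 binding protein genes in their summed RPKM, by epithelium library; bars are single libraries and add to 100%. Igfbp3 takes 6.51% to 7.53% in controls and 16.0% to 18.3% in libraries labelled Arid1a KO, Igfbp6 takes 11.4% to 12.3% and 3.36% to 4.05%, and Igfbp7 stays the largest share throughout.

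Over the 6 libraries, the values of some genes ran close to those of Igfbp6. Among those with the highest Pearson r of log2(RPKM + 1) were Pkdcc, a secreted tyrosine kinase (r = 0.9992), and Mpzl1, a membrane glycoprotein (r = 0.9991). Of 16271 genes compared, 188 reached an r of at least 0.99, and the 6 points share their libraries and the 2 groups between which Igfbp6 differs.

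Some fibroblast and smooth muscle markers also differed between the groups, and others did not. The marker lists were drawn up with earlier results of these data known, so p-values of markers are a description. Of the 8 fibroblast markers, 4 fell and 0 rose, beside 57.1% of all genes called: Dcn, a matrix proteoglycan, fell by 1.75 ± 0.11 (adjusted p = 2.92e-05), Lum, another, fell by 1.23 ± 0.13 (adjusted p = 0.000218), and Pdgfra and Thy1 fell by 0.68 and 0.40 on the log2 scale, whereas Col1a1, Col1a2, Col3a1 and Pdgfrb were not called. Dcn was 512.9, 424.8 and 561.4 RPKM in controls A, B and C and 152.3, 142.3 and 146.3 RPKM in those labelled Arid1a KO, so its control library B was also the lowest. Of the 6 smooth muscle markers, Acta2 and Actg2 rose and 4 fell (summed RPKM 119.0 to 137.6 in controls, 102.3 to 127.8 in the other group, which overlap). None of these markers was at 0 in every library of a group. The part of stromal RNA in the values of Igf1, Igf2 and the binding proteins was not tested.

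Other markers moved as well, and the counts that follow stand beside 57.1% of all genes called (27.5% higher and 29.6% lower). All 6 macrophage markers rose, by 0.47 to 1.23 on the log2 scale (adjusted p of at most 0.0096 in each), although the sort excluded CD45+ cells. Of the 4 leukocyte markers, 3 rose and Cd52 fell, with a summed RPKM of 678.9 to 716.8 in controls and 719.5 to 768.5 in the other group. Ptprc, the gene of CD45, rose from 26.0 to 30.3 RPKM in controls to 56.2 to 58.1 RPKM in the other group. Of the 4 neutrophil markers 2 rose and 0 fell, with sums of 309.4 to 441.6 and 348.5 to 577.8 in the same order. Ly6g, 1 of these 2, was 0.253, 0.530 and 0.446 RPKM in controls A, B and C. It reached the mean needed for testing only through the higher group. Of the 6 endothelial markers, Cdh5 rose and the others were not called (50.8 to 69.6 and 60.9 to 77.7). Of the 4 basal markers, Krt14 and Krt5 rose (1331 to 1884 and 2309 to 2584), and of the 4 luminal markers Epcam and Krt18 fell (1815 to 2217 and 1670 to 1779). The 6 seminal vesicle genes fell, with log2 fold changes of -3.43 to -8.13. Svs1 and Svs3a, at most 0.461 and 0.410 RPKM in the libraries labelled Arid1a KO, reached the mean needed for testing only through the controls. The part of any of these in the members' values was not tested.

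The rest of the IGF axis was read from 48 genes listed by role, 41 of which were tested in the epithelium. Of these, 15 rose and 10 fell, that is 25 of 41 beside 57.1% of all genes, and their log2 fold changes had a median of 0.03. The values follow by role, from the receptor outward, and no test compared the roles. Each count by role stands beside the same 57.1% of all genes called (27.5% higher and 29.6% lower). Adjusted p-values are from limma over all 16275 genes, with n = 3 libraries per group. The axis list was drawn up with earlier results of these data known, and most genes named are called ones with the largest changes. Their p-values are therefore a description and not independent support.

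Among 4 receptor relatives, 1 rose and 1 fell. Igf2r, which takes up IGF2 for breakdown, rose by 0.37 ± 0.09 (adjusted p = 0.00813), from 16.99 ± 1.83 to 22.2 ± 0.95 RPKM. Insr, the insulin receptor, was 4.75 ± 0.81 and 5.91 ± 0.07 RPKM (adjusted p = 0.0657), and passed the threshold when libraries were rescaled to the same sum (adjusted p = 0.0214, the lowest of 14 alternatives, whose highest was 0.142). Insrr, the alkali-sensing relative of the insulin receptor, showed the largest change of the axis. It fell from 8.81, 8.02 and 8.83 RPKM in controls A, B and C to 0.612, 0.468 and 0.484 RPKM, a fall of 2.65 ± 0.08 on the log2 scale (adjusted p = 2.26e-06).

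Of 3 other IGF-binding or complex proteins tested, 2 fell. Igfals, the acid-labile subunit that joins IGF and IGFBP3 in the blood's ternary complex, fell from 1.76, 2.24 and 1.39 RPKM in controls A, B and C to 0.207, 0.113 and 0.218 RPKM. It reached the mean needed for testing only through the controls, and its adjusted p with no filter on low values was 0.00143. These were 103 to 194 reads in controls and 8 to 15 reads in the other group. Its partner Igfbp3 was higher in the same libraries. Kazald1, a secreted protein with an IGF-binding domain, fell by 1.43 ± 0.11 (adjusted p = 6.19e-05).

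Among 4 tested proteases of the binding proteins and their inhibitors, 1 rose and 3 fell. Htra1, a serine protease that can cut IGFBP5, fell by 1.21 ± 0.06 on the log2 scale, from 32.4 ± 1.44 to 13.5 ± 0.28 RPKM (adjusted p = 1.27e-05). Stc2, which blocks PAPP-A, fell by 0.81 ± 0.21 (adjusted p = 0.0124). Adamts1, a metalloprotease of the ADAMTS family, rose by 0.53 ± 0.13 (adjusted p = 0.01).

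Of the RNA-binding proteins of the Igf2 mRNA, 2 were tested and both were called higher. Igf2bp2 rose from 1.196 ± 0.364 to 2.99 ± 0.49 RPKM (adjusted p = 0.00202). Igf2bp3 was 0.391 ± 0.038 and 1.004 ± 0.067 RPKM and reached the mean needed for testing only through the higher group. Fitted with no filter on low values, its adjusted p was 0.00391. Of 4 imprinted partners tested, Plagl1 rose and Cdkn1c fell. Cdkn1c, a cell cycle inhibitor of the cluster that adjoins Igf2, fell by 1.58 ± 0.09 (adjusted p = 1.91e-05). H19 was 1.12, 0.734 and 1.54 RPKM in controls A, B and C and 0.919, 0.866 and 0.895 RPKM in those labelled Arid1a KO, overlapping groups (adjusted p = 0.374).

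Among 7 tested adaptors, 3 rose and 1 fell. Irs2, an insulin receptor substrate that couples IGF1R to PI3K, rose from 12.1, 6.99 and 12.2 RPKM in controls A, B and C to 41.9, 38.9 and 32.5 RPKM, by 1.79 ± 0.20 on the log2 scale (adjusted p = 0.000281). Grb14, an adaptor that inhibits insulin receptor signalling, fell from 4.34 ± 0.49 to 0.992 ± 0.423 RPKM (adjusted p = 0.000341). Of 17 genes of PI3K, AKT, mTOR and FOXO, 7 rose and 2 fell, none by more than 0.53 on the log2 scale. Pik3cb, a catalytic subunit of PI3K, rose by 0.52 ± 0.10 (adjusted p = 0.0032).

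**Figure D4:**
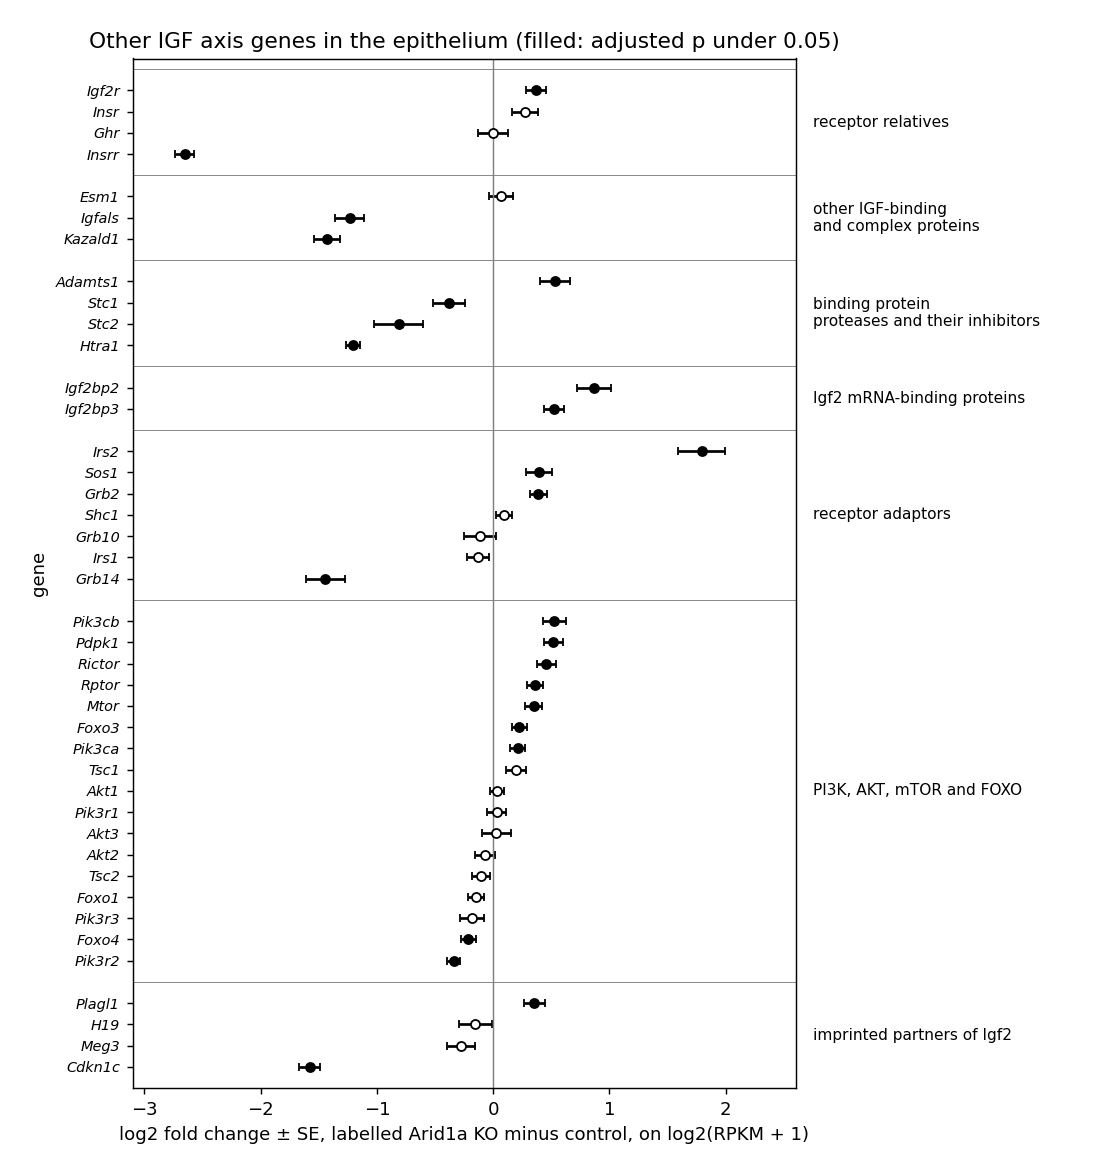
Log2 fold change with SE of 41 other IGF axis genes in the epithelium, libraries labelled Arid1a KO minus control, on log2(RPKM + 1), grouped by role; filled points have an adjusted p under 0.05. Insrr, at -2.65, and Irs2, at 1.79, mark the ends. The PI3K, AKT, mTOR and FOXO genes lie between -0.34 and 0.52, with 7 called higher and 2 lower.

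In Myc-CaP, the receptor and 1 binding protein were the members with measurable levels. Only Igf1r and Igfbp5 reached the mean of 0.5 TPM needed for testing, and the other 7 members held 0 to 7 reads in every library. Of the 2 tested, 1 was called, Igfbp5, beside 6.43% of 13974 genes tested (4.54% higher and 1.89% lower), whose log2 fold changes had a median of -0.01. Intervals here cover counting error only, since reads made by PCR are not independent molecules.

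Igf1r was 55.1 and 60.8 TPM in empty vector libraries 1 and 2 and 57.7 and 62.3 TPM in libraries 1 and 2 labelled Arid1a KO, from 5960 to 6139 reads each. The groups overlapped, with a log2 fold change of 0.05 ± 0.08 (SE, n = 2 per group). It ranked 3048 of 13974 genes by empty vector mean.

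Igfbp5 was 0.292 and 0.709 TPM in empty vector libraries 1 and 2 and 10.7 and 11.0 TPM in libraries 1 and 2 labelled Arid1a KO. These were 15 reads (exact 95% Poisson interval 8.4 to 24.7) and 32 reads (21.9 to 45.2) against 517 (473 to 564) and 491 (449 to 536). The ratio of means was 21.7, and single libraries compared pairwise gave 15.1 to 37.8. The log2 fold change was 3.00 ± 0.18 (SE, n = 2 per group) with a pseudocount of 1 and 4.28 with 0.1. The call was lost without either library labelled Arid1a KO, where the lone library left in that group is assumed to vary like the others. In the epithelium the same gene was lower on average and overlapped between the groups, and the difference between the systems was not tested, since the tables were normalized separately.

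**Figure D5:**
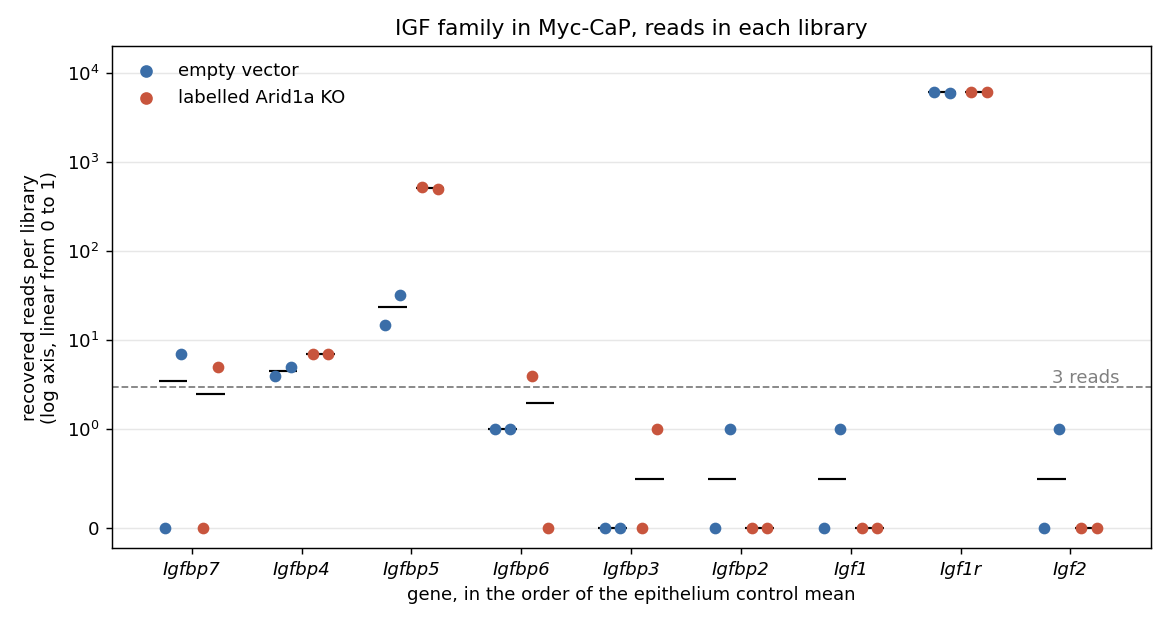
Reads recovered for each of the 9 IGF family genes in each Myc-CaP library, on a log axis that is linear from 0 to 1, with a black line at the group mean and a dashed line at 3 reads. Igf1r holds 5960 to 6139 reads everywhere, Igfbp5 goes from 15 and 32 to 517 and 491, and the other 7 genes hold at most 7 reads.

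The remaining members could not be compared at this depth. Igf1, Igf2 and Igfbp2 each held 1 read in empty vector library 2 and 0 in the other 3, and Igfbp3 held 1 read in library 2 labelled Arid1a KO. A count of 0 allows up to 3 reads (a one-sided 95% limit, where the two-sided interval reaches 3.69 reads). Those 3 reads are 0.046 TPM for Igf1, 0.079 TPM for Igf2, 0.278 TPM for Igfbp2 and 0.149 TPM for Igfbp3, each in the library at 0 where that limit is widest. Igfbp6 held 1 read in each empty vector library and 4 and 0 in libraries 1 and 2 labelled Arid1a KO. Igfbp4 held 4 and 5 reads with the empty vector and 7 in each of the others, whose intervals (1.09 to 11.7 reads and 2.81 to 14.4 reads) overlap widely.

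Igfbp7 followed the replicate number and not the group. It held 0 reads in both libraries numbered 1, and 7 and 5 reads in the libraries numbered 2. Some fibroblast and muscle genes did the same. Col1a1 was 0.212 and 0.347 TPM in empty vector and knockout-labelled library 1 and 19.4 and 7.45 TPM in the libraries numbered 2, and Acta2 was 0 and 0.043 TPM against 4.90 and 2.27 TPM. Pdgfra, a receptor on the same fibroblast list, did not follow the replicate number. It was 6.37 and 6.97 TPM with the empty vector and 5.05 and 5.01 TPM in the libraries labelled Arid1a KO, and was not called (adjusted p = 0.163, limma). Lum and Thy1, also on that list, were listed at 0 in all 4 libraries, and Dcn stayed at 0.0542 to 0.123 TPM. The summed TPM of the 8 fibroblast markers ranged from 7.11 to 37.4 with the empty vector and from 5.91 to 16.6 in the libraries labelled Arid1a KO. Their part in the Igfbp7 reads was not tested. Krt8, a luminal keratin, was 1.07 and 0.79 TPM in empty vector libraries 1 and 2 and 40.3 and 38.8 TPM in the libraries labelled Arid1a KO. The other luminal markers were too low to be tested. In the libraries labelled Arid1a KO, Epcam, Cdh1 and Krt18 reached at most 0.128, 0.386 and 0.658 TPM. Krt15, a basal keratin, was 0.199 and 0.075 TPM and 2.46 and 1.84 TPM in the same order, and reached the mean needed for testing only through the higher group. Of the other basal markers, Krt14 was not called (adjusted p = 0.312, limma), and Krt5 and Trp63 were too low to be tested.

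Of the other axis genes, 33 were tested in Myc-CaP, and 1 rose and 1 fell, beside 6.43% of all genes. Irs2 rose from 10.3 and 9.17 TPM in empty vector libraries 1 and 2 to 16.2 and 15.0 TPM, by 0.63 ± 0.10 on the log2 scale (adjusted p = 0.0345, limma, n = 2 per group), as it rose in the epithelium. Mtor, the kinase of the growth-promoting mTOR complexes, fell from 49.8 and 50.9 TPM to 36.7 and 38.1 TPM, by 0.42 ± 0.06 (adjusted p = 0.0279), while it rose in the epithelium from 5.79 ± 0.46 to 7.62 ± 0.18 RPKM (adjusted p = 0.00552). Both Myc-CaP calls were lost when any 1 of the 4 libraries was left out, with adjusted p-values of 0.146 to 0.208 for Irs2 and 0.155 to 0.186 for Mtor. Over all 11 alternatives these ran from 0.00478 to 0.208 for Irs2 and from 0.00239 to 0.186 for Mtor.

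Igf2r and Insr were expressed at levels that did not pass the test between the Myc-CaP groups. Igf2r was 16.5 and 16.7 TPM with the empty vector and 19.5 and 19.7 TPM in the libraries labelled Arid1a KO (adjusted p = 0.161), and Insr was 21.8 and 23.0 TPM against 20.6 and 24.1 TPM (adjusted p = 0.98). Htra1 was the most abundant of the axis, at 1188 and 1128 TPM and 1229 and 1195 TPM (adjusted p = 0.575). Igfals held 0 reads with the empty vector and 1 read in each library labelled Arid1a KO, and Igfbp1 held 2 reads in empty vector library 1 and 0 elsewhere. H19 held 3 to 7 reads in a library.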

How the data were processed

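RNA was sequenced from 6 libraries of sorted mouse prostate epithelium and 4 of Myc-CaP cells, grouped by the genotype label. According to the study's methods, the authors used TopHat2 to map read pairs to GRCm38 (mm10), keeping strand, and HTSeq-count to count them per gene, while the submitters' processing notes name HISAT2, HTSeq and DESeq2. The authors deposited RPKM values for the epithelium and TPM values for Myc-CaP, so no count model was fitted, and the lengths behind the values are not given in the sources used here. Reads were recovered by finding the library factors and the gene length at which values are whole reads: 99.9% of 33809 epithelium genes above 0 came out whole within 0.01 read in all 6 libraries, and 99.1% of 19491 genes checked in Myc-CaP at the same length. The recovered reads summed to 28580018 to 36068017 in the epithelium and 18197036 to 20433147 in Myc-CaP, and exact 95% Poisson intervals and a floor of 3 reads follow from them.

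Each table was fitted alone with limma 3.58.1 (lmFit, eBayes with trend, R 4.3.3) on log2(value + 1), over genes with a mean of at least 0.5. P-values are two-sided and adjusted after Benjamini and Hochberg over every tested gene of a table, called under 0.05, and the fit was tested on simulated data. Tests are given for 48 other axis genes and for marker lists (fibroblast, smooth muscle, endothelial, macrophage, leukocyte, neutrophil, luminal, basal and seminal vesicle), both written from general knowledge. The members and lists were chosen with earlier results of these data known, so p-values of axis genes and markers are not independent support. Besides all members, the text names Igf2r, Insr, Igfbp1, Igfals and H19, up to 12 called axis genes with the largest change in each table, Arid1a, genes among the 3 most like the member with the largest change, and genes within 100 kb of a member. Results for some genes that this rule names, and the deletion that both epithelial groups share, are not reported here. Pappa, Plagl1 and single markers were named after their values were seen. Alternatives were another pseudocount (0.1), no filter and a minimum mean of 5, quantile normalization, rescaling of the epithelium to the same sum, no trend, a replicate block and leaving out each library. limma voom on the recovered reads was added after seeing the data. Promoters came from RefSeq (GRCm38.p6), in which all 9 members were matched by symbol.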

Additional observations from a re-analysis of the deposited data

Results flagged for a closer look

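Of 31 axis genes tested in both systems, 9 had groups that did not overlap and lay in opposite directions between the epithelium and Myc-CaP. These were Htra1, Grb2, Sos1, Pik3ca, Pik3cb, Mtor, Tsc1, Foxo1 and Foxo4. The share of all genes that do the same was not counted, so the count of 9 is not a result about the axis. In the epithelium alone, 34.4% of all genes were lower and 32.4% higher without overlap. Only Mtor passed the test in both systems, and Tsc1 and Foxo1 passed in neither. The difference between the systems was not tested for any of the 9. Values are given for the 3 of them whose results the text above describes. Mtor had a log2 fold change of 0.35 in the epithelium and -0.42 in Myc-CaP, and passed the test in both (adjusted p = 0.00552 and 0.0279, limma). Pik3cb had 0.52 in the epithelium and -0.29 in Myc-CaP, where it did not pass (adjusted p = 0.139, limma). Htra1 had -1.21 in the epithelium and 0.066 in Myc-CaP, where it did not pass either (adjusted p = 0.575, limma).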

How the results depend on the processing

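In the epithelium, 7 members were called, 6 to 8 over the alternatives and 6 to 8 without each library in turn, and none of the 9 log2 fold changes changed sign under the 14 alternatives (13 for Igf2, which a minimum mean of 5 left out). The calls that came and went were those of Igf1, Igf1r and Igfbp5, and Igfbp5 was also called with a minimum mean of 5, with the block and by voom. Igf1 ranged from -0.54 to -0.19 and Igfbp5 from -0.54 to -0.22. A minimum mean of 5 left 13 axis genes called in place of 25, and 5872 genes in place of 9294, since fewer genes were tested. Over single left-out libraries axis calls ranged from 21 to 26 and all calls from 7768 to 8819. Rescaling to the same sum shifted the median of all genes from -0.03 to 0.11 and the share of calls that were higher from 48.1% to 64.9%, and kept the members' directions (Igfbp6 -2.01, Igfbp2 -1.71, Igfbp7 -0.35, Igf1r 0.41). Quantile normalization gave -0.33 for Igfbp7. In Myc-CaP, 0 to 1 members and 0 axis genes were called without each library in turn, and all genes called fell from 899 to between 47 and 76. Without a filter 0 axis genes and 358 genes were called, without the trend 0 and 451, and voom on recovered reads called 1543 genes. The cause was not tested. Same-lettered epithelium libraries did not deviate together (r = 0.04, 0.009 and -0.06, where other pairs gave -0.08 to 0.08). With 3 libraries per group these values cannot settle whether the letters pair the libraries. With 2 Myc-CaP libraries a group the correlations are equal in size by construction (0.19 for the same number, -0.19 otherwise) and the labels name no shared source, so whether the numbers pair these libraries is not known. With a replicate block, 2771 genes and 5 axis genes were called in Myc-CaP, and in the epithelium 7 members, 22 axis genes and 8823 genes. At this depth a level under 3 reads cannot be told from 0.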
